A study of Macaca mulatta with 13 samples.

Results

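The cells described here were picked from single-cell RNA data on leukocytes of the rhesus macaque colon (Macaca mulatta) by 1 rule on raw UMI counts (a UMI is a unique molecular identifier, a tag that stands for a single captured RNA). A cell entered with at least 1 UMI of KIT, at most 1 UMI of CD3E and CD3G together, no UMI of CD8A, under 2 UMIs of MS4A1 and CD79A together, and under 1% of its UMIs from JCHAIN. KIT encodes the receptor for stem cell factor, and the other genes mark T cells, B cells and plasma cells. The rule took 76 of 20567 cells, which is 0.370% (exact 95% interval 0.291 to 0.462%). The working name was innate lymphoid cells with KIT, and the data do not settle it. Of the 76 cells, 4 carried mast cell genes, 4 carried epithelial genes and 5 were rich in the MHC class II gene HLA-DRA. In the 63 left, genes of innate lymphoid cells were frequent, but the T cell receptor gene TRAC was in 71.4% of them against 78.9% of T cells, and 8 met the definition used here for T cells. Of the same 63, 9 also carried genes of another listed type (at least 3 UMIs from at least 2 genes), all 9 by the plasmacytoid list, which holds GZMB, and 1 by the plasma cell list too. The 76 cells are called KIT-gated cells below, and the 63 are called trimmed cells. The 63 were set apart after the values had been seen, so their values are a description with no test.

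The study modelled acute GVHD (graft-versus-host disease), an attack of donor T cells on recipient tissue, and compared colon samples of transplanted macaques with those of untransplanted healthy controls. Viable CD45+ cells that did not bear the intravascular CD45 label were sorted, and in some GVHD samples they were parted into host and donor fractions by the macaque class I molecule MAMU-A001. By the labels 4 of 13 libraries are host, 2 donor, 3 host and donor combined and 4 healthy control. The sources used here give neither animal ages, nor the transplant regimen, nor the label to which the number at the end of a barcode belongs. Libraries are therefore named by that number, no condition is compared with another, and nothing is tested. Libraries 4 and 6 shared 5323 barcodes, where no other pair shared more than 55, so library 4 was left out, which leaves 12 libraries. It held 39 cells of which 3 passed the rule, and the barcodes of all 3 also passed it in library 6. By shared barcodes, libraries 1 to 7 were taken as a first set, in which each pair shared at least 6. The libraries left (8 to 13) are called the second set. At most 3 barcodes were shared between a library of one set and a library of the other. Pairs within the second set shared as few as 1, so sharing does not bind that set together. Both version 2 and version 3 of the 10x droplet kit were used, and the sources used here do not say for which libraries.

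Innate lymphoid cells (ILCs) are lymphocytes without a rearranged antigen receptor. They depend on the IL-7 receptor and on the transcriptional regulator ID2, and are grouped by the T helper programme that they resemble. Group 3 ILCs, the kind for which the gut is best known, respond to IL-1β and IL-23 and can make IL-22, lymphotoxin and other TNF-family ligands. ZBTB16 encodes PLZF, a regulator of ILC precursors and of innate-like T cells. KIT is borne by group 3 ILCs and ILC precursors, but also by mast cells, by progenitors and by the interstitial cells of Cajal, so KIT alone does not name a cell.

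The cells set apart from the trimmed cells were picked by their mast, epithelial or HLA-DRA UMIs. Their levels of these genes are therefore a description. In the 4 mast gene cells, CPA3, the mast cell carboxypeptidase, had 22 and 72 UMIs in library 8, 13 in library 9 and 78 in library 12. MS4A2, the beta chain of the high-affinity IgE receptor, had 4 to 27 UMIs in the same cells, and the chymase gene CMA1 had 2 to 39. No T cell or B cell met the rule used for mast genes (at least 3 UMIs from at least 2 genes of the list). The trimmed cells lack mast, epithelial and class II-rich cells by the way they were set apart, so nothing is read from the absence of such genes in them.

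All 4 epithelial gene cells came from library 6, which had only 101 cells. One cell had 250 UMIs of GCG (proglucagon, of enteroendocrine cells), 76 of CHGA (chromogranin A) and 133 of CPB1, and another had 180 of GCG and 139 of CHGA. A further cell had 76 UMIs of CHGA and none of GCG. The fourth had neither, but had 102 UMIs of FABP1, a fatty acid binding protein of enterocytes, 10 of ACTA2 and 4 of KIT. These cells were present in a sort for CD45+ cells.

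The 5 class II-rich cells had 27 to 172 UMIs of HLA-DRA. They lay in library 2 (107 and 137) and library 8 (172, 60 and 27), and each had 1 UMI of KIT. The cell with 137 also had 60 UMIs of LYZ (lysozyme) and 17 of AIF1, both of myeloid cells. The cell with 172 had 1 UMI of each. It also had 46 UMIs of LTB, 39 of ID2 and 2 of IL4I1, genes described below in trimmed cells, and none of IL7R. The 2 cells of library 2 held 13559 and 15737 UMIs and 1 of library 8 held 14689, against a median of 3372 over the KIT-gated cells. No doublet caller was run, and whether these barcodes held 2 cells was not tested.

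**Figure D1:**
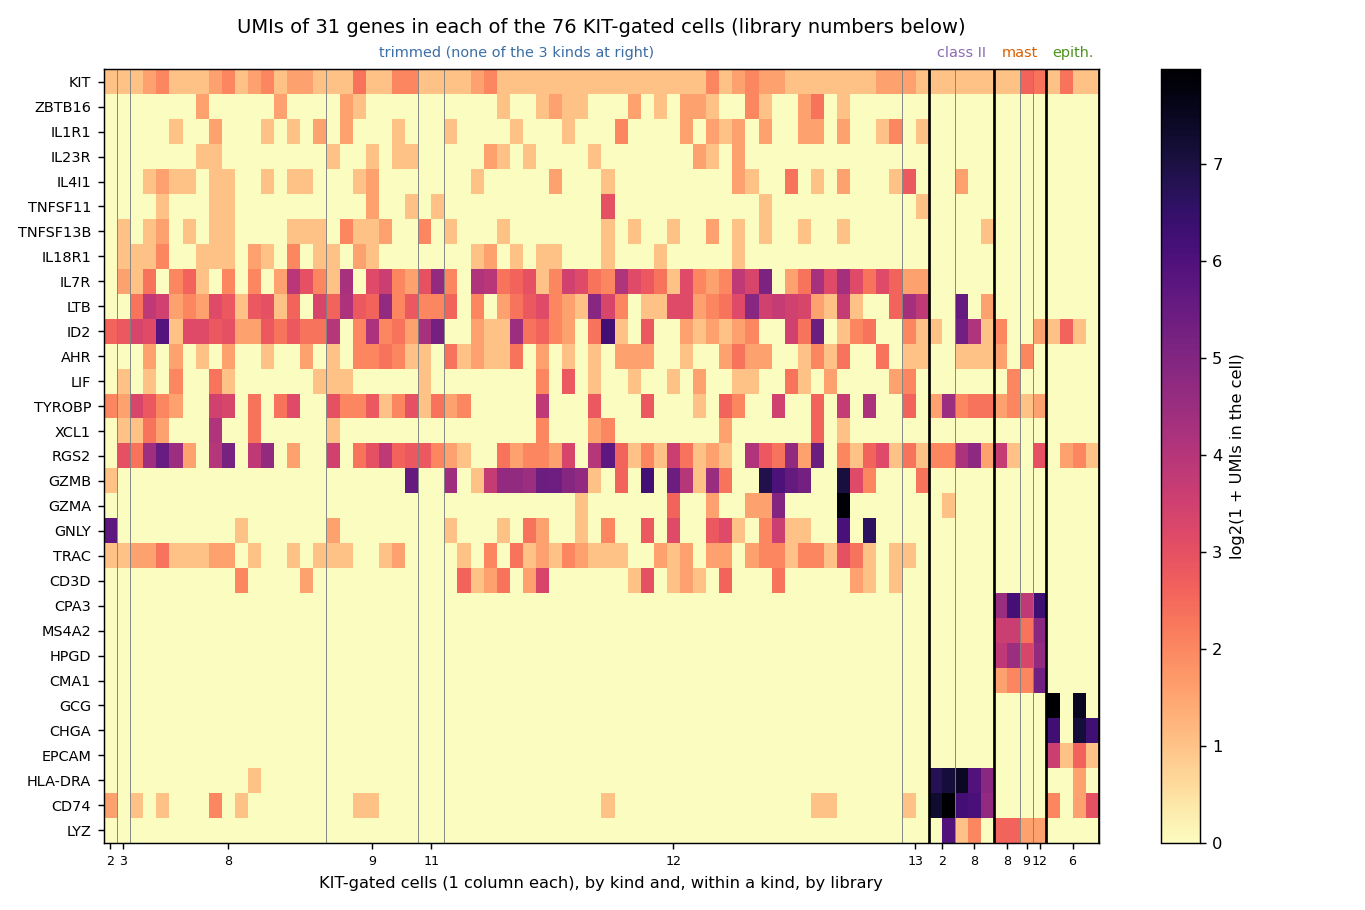
Each column is 1 of the 76 KIT-gated cells and each row 1 gene, with colour for log2(1 + UMIs in the cell); cells are ordered by kind and then by library, whose number stands below. The mast genes CPA3, MS4A2, HPGD and CMA1 fill the columns of 4 cells, and HLA-DRA those of 5 cells. Of the 4 epithelial gene cells of library 6, 2 show GCG and 3 show CHGA. IL7R, LTB and ID2 run through most of the 63 others.

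KIT-gated cells were uneven over libraries. Library 12 held 36 of the 76 among 2858 cells, or 1.26% (0.884 to 1.74%). Library 8 held 20 of 2111, or 0.947% (0.580 to 1.46%), and library 9 held 8 of 2820, or 0.284% (0.123 to 0.558%). The intervals of libraries 8 and 12 overlap, and both lie above that of library 9. Libraries 2, 3, 11 and 13 held 3, 1, 2 and 2 cells, and libraries 1, 5, 7 and 10 held none. By a floor of 3 counts, which is used for shares of 0, the 1952 cells of library 1 allow a share of up to 0.154% and the 29 of library 7 one of up to 10.3%. Library 6 had the highest share, 4 of 101 or 3.96% (1.09 to 9.83%), but none of its 4 cells was a trimmed cell. Intervals, unlike these floors, are exact Clopper-Pearson intervals for shares and exact Poisson intervals for summed UMIs, and cover counting error only.

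**Figure D2:**
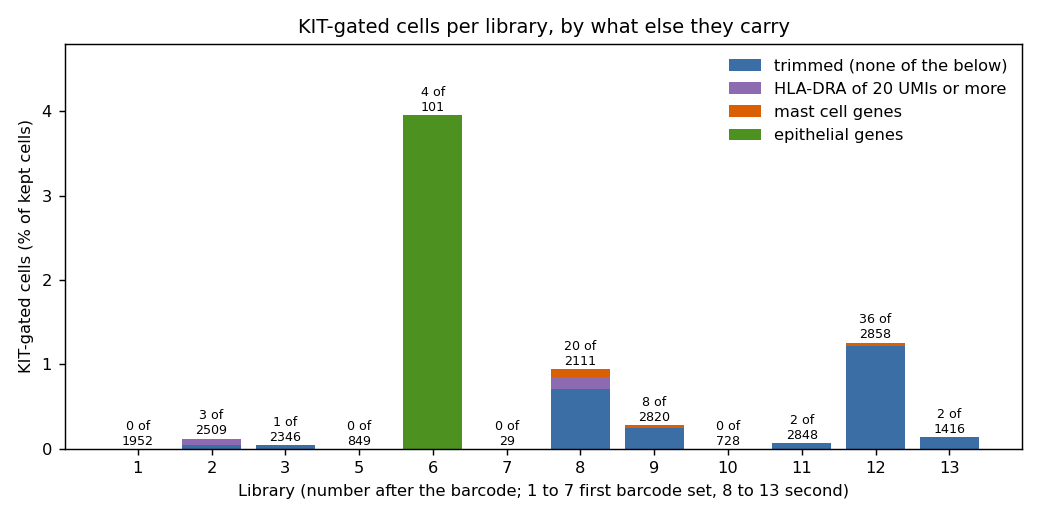
Bars give KIT-gated cells as a percent of the cells kept in each library, split by what else the cells carried, with the numbers of cells written above. Libraries 8 and 12 hold most trimmed cells (15 and 35), and the bar of library 6 is made wholly of epithelial gene cells.

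Trimmed cells numbered 15 in library 8, 7 in library 9, 35 in library 12, 2 each in libraries 11 and 13 and 1 each in libraries 2 and 3. As a share of all cells they made up 0.711% of library 8 (0.398 to 1.17%), 0.248% of library 9 (0.0999 to 0.511%) and 1.22% of library 12 (0.854 to 1.70%). The second barcode set held 61 of the 63. How far kit, animal and condition set these shares cannot be told apart here.

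KIT itself was sparse. Of the 76 cells, 52 had 1 KIT UMI, 12 had 2 and 12 had 3 or more, with a maximum of 5. Of the 159 cells with any KIT UMI in the 12 libraries, 83 did not pass the rule, 66 of them because CD3E and CD3G together exceeded 1 UMI. At that edge, 13 gated cells had 1 such UMI and 63 had none, and 11 cells with KIT lay just outside with 2. A KIT UMI was found in 68 of 13096 T cells (0.519%), defined by at least 3 UMIs of CD3D, CD3E and CD3G together, and in 8 of 5865 B cells (0.136%), defined by at least 2 of MS4A1 and CD79A. Median depth was 3294 UMIs in T cells and 4278 in B cells. Among the 3228 cells that passed every part of the rule other than KIT, 2.35% had KIT, and this share was 10.1% in library 12, 4.63% in library 8 and 1.24% in library 9.

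Some genes that the rule did not use were more frequent in the trimmed cells than in most other kinds. A count was made over 7 genes from the ILC and cytokine receptor lists (ZBTB16, IL1R1, IL23R, IL4I1, TNFSF11, TNFSF13B and IL18R1). No rule for this choice was set in advance, IL22 and NCR2 are not among the 7, and ZBTB16 was a marker given with the working name. The count is therefore a description and no support for that name. Of the 7 genes, 40 of the 63 cells had a UMI of at least 2 (63.5%, 50.4 to 75.3%). Cells that passed the rest of the rule without a KIT UMI reached this in 165 of 3152 cases (5.23%), T cells in 5.49% and B cells in 0.494%. T cells with a KIT UMI reached it in 18 of 68 (26.5%, 16.5 to 38.6%). Within libraries the trimmed cells reached it in 11 of 15 cells in library 8, 6 of 7 in library 9 and 21 of 35 in library 12 (42.1 to 76.1%). T cells with KIT reached it in 14 of 30 in library 12 (46.7%, 28.3 to 65.7%), and these intervals overlap. In library 12 the cells without KIT also reached 19.4%, against 4.85% in library 8 and 2.52% in library 9.

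**Figure D3:**
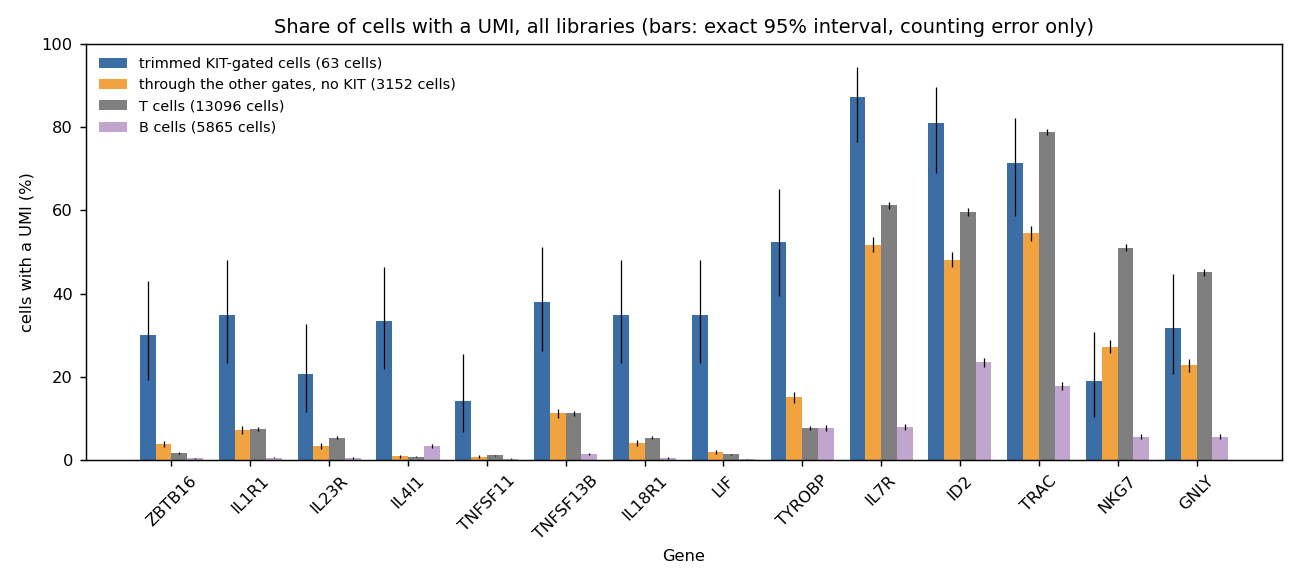
Bars give the percent of cells with a UMI of each gene in trimmed cells, in cells that passed the rest of the rule without KIT, in T cells and in B cells, with exact 95% intervals. ZBTB16, IL4I1 and LIF are found in 30.2 to 34.9% of the 63 trimmed cells and in under 4% of each of the 3 other kinds.

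For levels, UMIs were summed over the cells of a kind in a library and scaled to the same total in each (CPM), and the log2 ratio of KIT-gated to T cells of the same library was taken after adding 10 CPM, which understates the change of low genes. A gene counted as measured with at least 10 CPM in either kind. With all KIT-gated cells, libraries 8 and 12 had the 20 cells required. Of 6946 measured genes, 258 (3.71%) were at least 2-fold higher in both and 137 (1.97%) at least 2-fold lower. In either direction regardless of size, 3268 (47.0%) were higher in both and 974 (14.0%) lower, and the median log2 ratio over all genes was 0.29. That split turned to 1237 higher and 2967 lower with TMM scaling and to 1934 each way after centring on the median. Immunoglobulin RNA was abundant in T cells (IGHA2 at 60342 CPM in T cells of library 8) and low in KIT-gated cells, which the JCHAIN limit selects for. IGHA2, IGKC, IGHM, MZB1 and DERL3 were among the 15 lowest genes. Nothing is read from them, since the rule limits JCHAIN, and the part of that limit in their ratios was not tested.

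With the mixture left in, the highest genes were partly those of the mast cells. CPA3 had the highest log2 ratio (6.36, median of the libraries), with HPGD at 4.83, MS4A2 at 4.59 and CMA1 at 3.63, all resting on 3 cells. T cells had at most 3.22 CPM of these genes, so the ratios depend on the 10 CPM added. The same list held RGS2 (3.88), LIF (3.77), IL4I1 (3.61), GNA15 (3.54) and TYROBP (3.52), which the trimmed cells carried too. CST3, a cysteine protease inhibitor abundant in myeloid cells, stood at 3.55 and turned to a median of -0.26 among the trimmed cells. CLU (3.39) rested on 1 cell in each library. Of the 12 mast genes in the data, 8 were measured. Of these, 7 were higher in both libraries, against 47.0% of all genes, and 6 were at least 2-fold higher, against 3.71%.

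The trimmed cells were compared with T cells in libraries 8, 9 and 12, the ones with at least 5 of them. Their summed depth was low, so that 3 UMIs are worth 67.2 CPM in library 8, 145 in library 9 and 22.4 in library 12. Of 7510 measured genes, 133 (1.77%) were at least 2-fold higher in all 3 libraries and 118 (1.57%) at least 2-fold lower, and 1350 (18.0%) were higher and 824 (11.0%) lower regardless of size. The median log2 ratio over all genes was 0.29 in library 8, -0.52 in library 9 and 0.25 in library 12. Of the 17 group 3 ILC genes reported, 16 were measured, 9 were higher in all 3 libraries, 7 at least 2-fold, and 1 was lower, with a median log2 ratio of 1.65 against 0.10 over all genes. The 7 were AHR, LST1, LTB, IL1R1, TNFSF4, TNFSF11 and IL4I1, of which TNFSF4 and TNFSF11 rest on few UMIs.

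Among regulators of transcription, ZBTB16 was higher in all 3 libraries. Its summed level was 89.6 CPM in library 8 (24.4 to 229), 145 in library 9 (29.9 to 423) and 187 in library 12 (121 to 276), against 1.01, 3.91 and 4.29 CPM in T cells of these libraries. The intervals of trimmed cells and T cells did not overlap in any of them, but they cover counting error only. The levels of libraries 8 and 9 rest on 4 and 3 UMIs, in 2 cells each. ZBTB16 was also a marker given with the working name, so no support for that name is read from it. ZBTB16 had a UMI in 30.2% of all 63 cells (19.2 to 43.0%), in 3.84% of the cells that lacked only KIT and in 1.79% of T cells, and thinning each cell to 1500 UMIs left 17.6, 2.18 and 0.813%.

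ID2, the inhibitor of E proteins on which ILCs depend, stood at 2957, 2125 and 1488 CPM in libraries 8, 9 and 12 against 398, 334 and 469 in T cells. The cells that lacked only KIT had 826, 301 and 559 CPM of ID2. A UMI of ID2 was in 15 of 15 trimmed cells in library 8 and 6 of 7 in library 9, against 59.0 and 48.6% of T cells. In library 12 the share was 68.6%, against 66.7% of T cells and 83.3% of T cells with KIT. Single cells there held 75, 41 and 21 of the 199 UMIs, and 1 cell of library 8 held 57 of 132. AHR, a ligand-activated receptor needed for gut group 3 ILCs, had log2 ratios of 1.24, 2.44 and 1.49. TOX2, an HMG-box factor of innate lymphocytes, had 2.31, 2.14 and 0.76, on 5 UMIs in library 8 and 3 in library 9. Its library 9 interval overlaps that of T cells (29.9 to 423 against 20.9 to 30.0 CPM). Of 12 measured genes shared by ILCs, 9 were higher in all 3 libraries, against 18.0% of all genes, and 1 was lower, against 11.0%. Only ZBTB16 and ID2 were at least 2-fold higher, against 1.77%. KLRB1, 1 of the 12, was in 8 of 63 trimmed cells (12.7%). It was in 1 of 15 in library 8 and 2 of 7 in library 9, against 17.7 and 16.2% of T cells.

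Of 17 cytokine receptor genes measured, 7 were higher in all 3 libraries, against 18.0% of all genes, 4 of them at least 2-fold (IL15RA, IL2RA, IL1R1 and IL18R1), against 1.77%, and 3 were lower, against 11.0%. IL1R1, the receptor for IL-1, stood at 157 CPM in library 8 (63.0 to 323), 145 in library 9 (29.9 to 423) and 187 in library 12 (121 to 276), against 23.9, 37.9 and 36.9 in T cells. The library 9 intervals overlap (T cells 32.6 to 43.8), while those of libraries 8 and 12 do not. IL18R1, a chain of the IL-18 receptor, stood at 336, 193 and 67.3 CPM against 12.1, 14.4 and 25.2. In library 12, T cells with KIT had IL1R1 in 46.7% and IL18R1 in 26.7%, where trimmed cells had 40.0 and 22.9%. Of the 8 T cells with KIT in library 8, 25% had each gene, against 33.3 and 66.7% of trimmed cells. None of the 3 in library 9 had either. IL23R, a chain of the IL-23 receptor, had log2 ratios of 1.80, 3.48 and 0.93. Its intervals overlap those of T cells in library 8 (5.43 to 162 against 3.67 to 8.69 CPM) and library 12 (35.9 to 138 against 31.2 to 38.1), and do not in library 9 (52.6 to 495 against 5.89 to 11.2). IL7R, which T cells express as well, was at 1030, 2077 and 1944 CPM against 529, 867 and 1445. Its log2 ratios were 0.95, 1.25 and 0.43, and over all KIT-gated cells its ratio turned to -0.04 after centring and -0.42 with TMM scaling. IL15RA and IL2RA, chains of the IL-15 and IL-2 receptors, had median log2 ratios of 2.20 and 1.40.

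**Figure D4:**
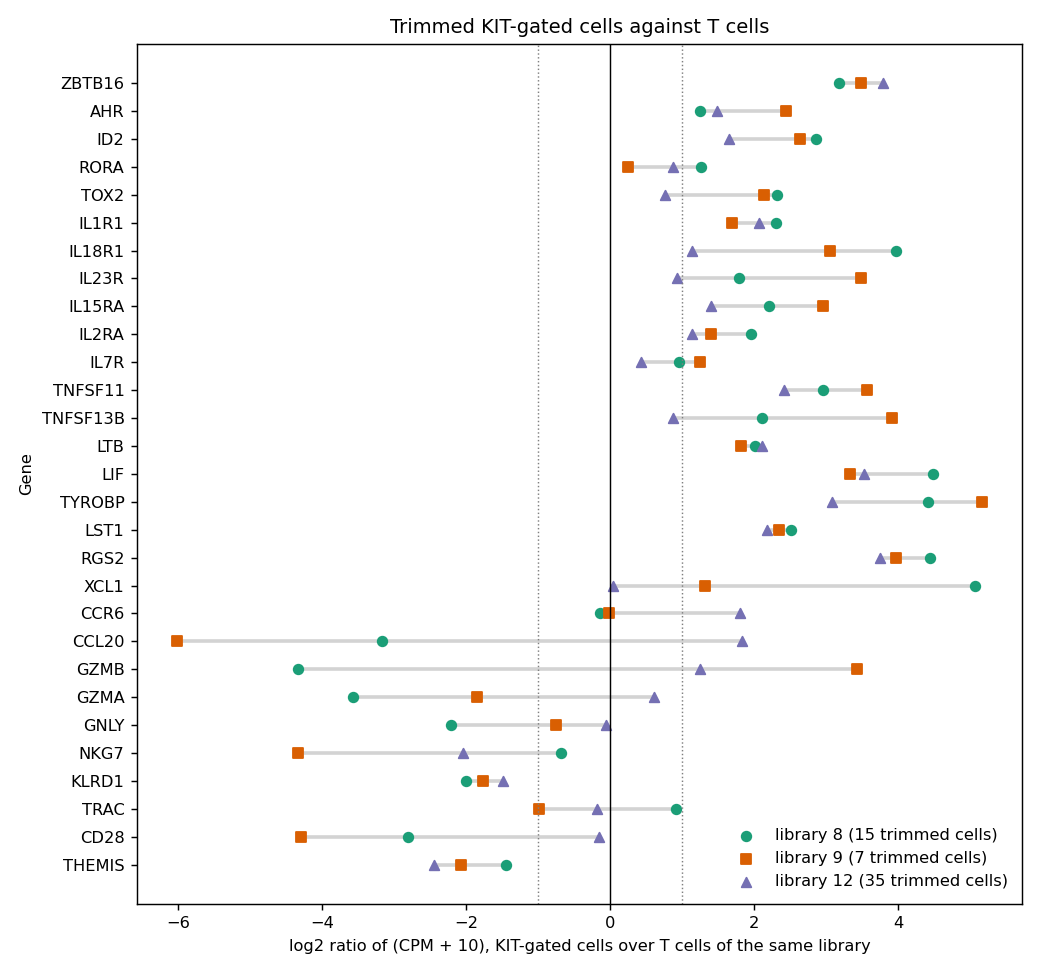
Points give, for each gene, the log2 ratio of (CPM + 10) between trimmed cells and T cells of the same library, for libraries 8, 9 and 12, and grey lines span the 3 values; dotted lines mark 2-fold. ZBTB16, LIF, TYROBP and RGS2 lie beyond 2-fold in all 3 libraries, while GZMB runs from -4.33 to 3.43 and CCL20 from -6.01 to 1.83.

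LTB, which encodes lymphotoxin beta, was at 1725 CPM in library 8, 3236 in library 9 and 1488 in library 12 against 420, 913 and 337 in T cells, so that its log2 ratio was 1.81 to 2.11. TNFSF11, which encodes RANKL, had 14 UMIs in 7 cells of these libraries and log2 ratios of 2.95, 3.57 and 2.41, with T cells at 0 in library 8. Of the 14 UMIs, 7 lay in 1 cell of library 12, and libraries 8 and 9 had 3 each. TNFSF4 (OX40 ligand) was sparse, with 6 UMIs in 5 cells, and was at 0 in T cells of libraries 8 and 9. TNFSF13B, which encodes BAFF, had ratios of 2.10, 3.91 and 0.87. LIF, a cytokine of the IL-6 family, was at 224 CPM in library 8 (107 to 412), 96.6 in library 9 (11.7 to 349) and 187 in library 12 (121 to 276), while T cells had 0.504, 0.618 and 7.16. IL22, the cytokine for which group 3 ILCs are best known, had a UMI in 1 of the 63 cells. NCR2, the natural cytotoxicity receptor NKp44, had one in 2. Of 17 cytokine genes measured, 7 were higher in all 3 libraries (18.0% of all genes), 5 at least 2-fold (1.77%), and 3 were lower (11.0%).

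Several genes outside the ILC lists, and IL4I1, also stood out. RGS2, a regulator of G protein signalling, was in 51 of 63 cells (81.0%) and in 24.9% of T cells, but also in 41.9% of B cells. Of the cells that lacked only KIT, 36.4% had it in library 8 and 20.4% in library 9. IL4I1, a secreted amino acid oxidase, was in 21 of 63 cells (33.3%, 22.0 to 46.3%), in 0.832% of T cells and in none of the 68 T cells with KIT, where the floor of 3 counts allows a share of up to 4.41%. GNA15, a G protein alpha subunit, was in 21 cells and had log2 ratios of 4.02, 5.64 and 2.53. LYN, a kinase that acts below KIT, had a median log2 ratio of 1.39, and of 18 KIT signalling genes measured it alone was at least 2-fold higher in all 3 libraries, against 1.77% of all genes. Regardless of size 4 of the 18 were higher, a share near the 18.0% of all genes, and 1 was lower, against 11.0%. Early response genes were 7 of 12 higher, against the same 18.0%, with NFKBIA at 1.55, the only one at least 2-fold.

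Of 11 measured genes of the natural killer and group 1 ILC list, 5 were lower in all 3 libraries, against 11.0% of all genes, and 2 were higher, against 18.0%. TYROBP was the 1 at least 2-fold higher, and the median log2 ratio of the list was -0.04. The rule bars CD8A, while the T cells had no limit on CD8A. The part of that difference in these ratios was not tested, so no identity is read from the count. TYROBP, the signalling adaptor DAP12, stood at 1232 CPM in library 8 (928 to 1604), 1449 in library 9 (978 to 2069) and 621 in library 12 (494 to 769), against 48.1, 30.7 and 64.4 in T cells. The cells that lacked only KIT had 863 CPM of TYROBP in library 8 (816 to 911) and 135 in library 9 (118 to 154). KLRD1 (CD94) was at 0 in libraries 8 and 9, where T cells had 30.2 and 23.9 CPM, below what 3 UMIs are worth, and at 37.4 CPM in library 12 against 123 in T cells. NKG7, a granule protein, had log2 ratios of -0.68, -4.34 and -2.05. EOMES and TBX21, the regulators of natural killer cells and group 1 ILCs, were too low to be measured. The ILC2 list had 2 of its 10 genes measured, and neither was higher or lower in all 3 libraries. The list of unconventional (innate-like) T cells had 5 genes measured, with a median log2 ratio of 0.80. Of these, 3 were higher in all 3 libraries, against 18.0% of all genes, and 0 were lower, against 11.0%. The 2 at least 2-fold higher, against 1.77% of all genes, were ZBTB16 and IL18R1, which the ILC and cytokine receptor lists hold too.

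T cell genes were mostly lower, but TRAC was higher in library 8 and lower in libraries 9 and 12. Of 8 measured T cell genes other than those of the rule and of the T cell definition, none was higher in all 3 libraries, against 18.0% of all genes, and 5 were lower, against 11.0%. The rule limits CD3E, CD3G and CD8A, and the T cells were picked by their CD3 UMIs. The part of these choices in the ratios of other T cell genes was not tested, so nothing is read from that count. THEMIS, which acts in T cell selection, had no UMI in any of the 3 libraries. Its T cell level of 44.6 CPM in library 12 lay above the 22.4 CPM of 3 UMIs, while those of libraries 8 and 9 lay below theirs. GZMK and IFNG were likewise at 0 in library 12, against 33.4 and 151 CPM in T cells. TRAC, the constant segment of the T cell receptor alpha chain, had a UMI in 45 of 63 trimmed cells (71.4%, 58.7 to 82.1%), against 78.9% of T cells and 17.9% of B cells. Its level was 403 CPM in library 8 (239 to 637) against 209 in T cells (195 to 224), 241 in library 9 against 489, and 434 in library 12 against 492. TRBC1, TRBC2 and TRDC are not named in the data, so a rearranged receptor could not be looked for, and full-length receptor sequences were not analysed here. CD3D, which defines the T cells in part but is not limited by the rule, had a UMI in 16 of 35 cells in library 12, 2 of 15 in library 8 and 0 of 7 in library 9. Of the 76 KIT-gated cells, 8 met the T cell definition as well, 7 of them in library 12, and they were left out of the T cells. Without those among the trimmed cells, 141 genes in place of 133 were at least 2-fold higher in all 3 libraries.

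The trimmed cells of libraries 8 and 12 differed in several genes, at median depths of 2809 and 3498 UMIs. GZMB, which encodes granzyme B, was in 0 of 15 cells in library 8, 1 of 7 in library 9 and 25 of 35 in library 12 (71.4%, 53.7 to 85.4%). Its level in library 12 was 6020 CPM (5611 to 6451) against 2521 in T cells. The single positive cell of library 9 held all 45 of that library's GZMB UMIs, which gave 2174 CPM. GZMB was also in 60.2% of T cells in library 12, 9.72% in library 9 and 13.2% in library 8, and in 29.7% of B cells in library 12, whose median depth was 18956 UMIs. After thinning to 1500 UMIs the shares in library 12 were 64.4% of trimmed cells, 50.8% of T cells and 16.7% of B cells.

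GZMA, which encodes granzyme A, did not accompany GZMB to the same extent. It was in 7 of 35 cells in library 12 and in none of libraries 8 and 9, and 239 of its 281 UMIs in library 12 lay in 1 cell, which also had 131 UMIs of GZMB and 69 of GNLY. In library 12, 20 of the 25 GZMB cells also had TRAC, 9 had TYROBP and 11 had ZBTB16. CCR6, a homing receptor for CCL20, was in 20 of 35 cells in library 12 (57.1%, 39.4 to 73.7%), against 1 of 15 in library 8 and 1 of 7 in library 9, and in 17.1% of T cells in library 12. T cells with KIT in library 12 had CCR6 in 14 of 30 (46.7%, 28.3 to 65.7%), which overlaps the share in the trimmed cells. OLFM4, which is best known from crypt epithelial stem cells and neutrophils, was in 13 of 35 cells in library 12 (37.1%, 21.5 to 55.1%), with up to 49 UMIs in a cell, and in none of 15 in library 8, whose exact upper limit of 21.8% overlaps that interval. It was in 1.95% of T cells in library 12 and in 8 of the 30 T cells with KIT there (26.7%, 12.3 to 45.9%), which overlaps the share in the trimmed cells as well. ZBTB16 was in 15 of 35 cells in library 12 (42.9%, 26.3 to 60.6%) and 2 of 15 in library 8 (13.3%, 1.66 to 40.5%), and these intervals overlap.

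IL18R1, IL4I1 and XCL1 had higher values in library 8 than in library 12. IL18R1 was in 10 of 15 cells in library 8 (66.7%, 38.4 to 88.2%) and 8 of 35 in library 12 (22.9%, 10.4 to 40.1%), and IL4I1 in 9 of 15 (60.0%, 32.3 to 83.7%) and 9 of 35 (25.7%, 12.5 to 43.3%). The intervals overlap for both genes. XCL1, which encodes a chemokine for cross-presenting dendritic cells, was at 605 CPM in library 8 (399 to 880) and 120 in library 12 (68.4 to 194), but 16 of the 27 UMIs in library 8 were in 1 cell. Its level in T cells was 8.31 and 116 CPM. The parts that animal, condition and kit have in these library differences cannot be told apart.

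**Figure D5:**
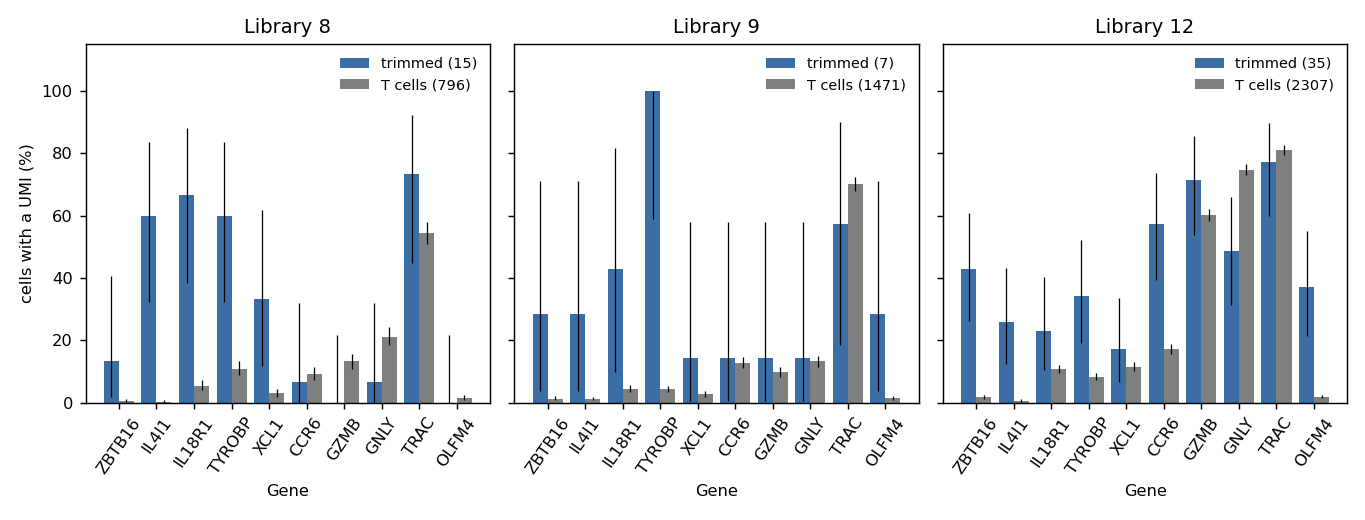
Panels show libraries 8, 9 and 12, and bars give the percent of trimmed cells and of T cells with a UMI of each gene, with exact 95% intervals and the numbers of cells in brackets. GZMB is found in 0% of trimmed cells in library 8 and 71.4% in library 12, and in T cells in 13.2 and 60.2%.

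Outside these libraries 6 trimmed cells remained. The cell of library 2 had 52 UMIs of GNLY, 5 of ID2 and 3 of TYROBP, and none of IL7R, LTB or ZBTB16. The cell of library 3 had IL18R1, TNFSF13B and XCL1 at 1 UMI each and 2 UMIs of IL7R. Both cells of library 11 had IL7R (7 and 24 UMIs) and ID2 (18 and 37), and 1 of them had 3 UMIs of TNFSF13B. In library 13, 1 cell had 6 UMIs of IL4I1 and the other had TNFSF11 and IL1R1 at 1 UMI each. So 5 of the 6 had IL7R and a gene of the group 3 ILC list, and the cell of library 2 had neither IL7R nor LTB. T cells often had such genes too. IL7R was in 54.9% and LTB, a gene of that list, in 56.9% of T cells in library 8. In library 9 the shares were 62.6 and 80.1%. No support for the working name is therefore read from these 6 cells.

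The cells are given last by their number of KIT UMIs, a value that the rule used. Of the 63 cells, 42 had 1 KIT UMI, 12 had 2 and 9 had 3 or more, with median depths of 3352, 3334 and 3097 UMIs. IL4I1 was in 8 of 42 cells at 1 UMI (19.0%), 8 of 12 at 2 (66.7%) and 5 of 9 at 3 or more (55.6%). CRTAM, an adhesion receptor of lymphocytes, was in 12 of 42, 6 of 12 and 6 of 9 cells, and GNA15 in 10, 5 and 6. GZMB was in 22 of 42, 3 of 12 and 3 of 9 cells, and ZBTB16 in 15, 1 and 3. These classes rest on few cells and mix libraries, so no order is read from them for any gene. All 5 class II-rich cells had 1 KIT UMI, while the mast gene cells had 1, 1, 4 and 5.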

How the data were processed

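The deposited raw matrix holds counts of UMIs for 34628 genes and 57086 barcodes (146797955 UMIs), and Cell Ranger 3.1.0 and Seurat 3.1 are named in the submitters' processing notes. The sources used here give neither the genome build nor the annotation. Cells are those that the authors kept in their deposited normalised matrix, which served only for its column names. Symbols came from the file (23811 genes) and from a table of gene names (695 more). The members and lists were chosen with earlier results of these data known. Named genes are measured members of those lists and the 15 highest and 15 lowest genes that went one way in both libraries, gate genes excepted; some genes are not reported here. OLFM4 and the single cells described were chosen after their values were seen.

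Counts were summed per kind and library (Python 3.11.15, numpy 2.4.6, pandas 2.3.3, scipy 1.17.1), with 10 CPM added before ratios. Libraries needed 20 gated and 20 T cells. A gene's ratio is the median over libraries. Another type's genes meant at least 3 UMIs from at least 2 genes of its list, and class II-rich meant 20 UMIs of HLA-DRA. Kept cells per library ranged from 29 to 2858. TMM factors came from edgeR 4.0.16. Thinned shares are expected values at 1500 UMIs. The ratio step was tested on simulated data. No doublet caller was run. Alternatives included other gates, T cell definitions, pseudocounts and filters, thinning, scaling and leaving out each library.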

Additional observations from a re-analysis of the deposited data

How the results depend on the processing

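The share of KIT-gated cells was 0.117% with at least 2 KIT UMIs, 0.263% with no CD3 UMI, 0.267% without cells that carry genes of another listed type (27.6% of the 76, and 22.3% of T cells), 0.197% of all barcodes, and 0.103 and 0.532% in the first and second barcode sets. Leaving out 1 library gave 0.226 to 0.418%, lowest without library 12. Cells with genes of another listed type made up 14.3% after thinning and 75% in the first set, and trimmed cells 93.7 and 25%, and 70.0 to 87.5% with 1 library left out, lowest without library 12. The ratio needs 20 gated cells a library, so at least 2 KIT UMIs, no CD3 UMI and the first set alone gave none.

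Genes lower in every library numbered 2424 without other-type cells, 3229 after thinning, 1536 with means per cell and 5318 with no filter; the first 2 settings left 1 library. At least 2-fold higher and lower genes were 842 and 683 without other-type cells, 1289 and 1742 thinned, 124 and 234 centred, 98 and 281 with TMM, 623 and 257 with 1 CPM added, 53 and 33 with 50 CPM. Centring gave 1934 higher and 1934 lower, and TMM 1237 and 2967. With 1 library left, higher genes ran from 4830 to 5793, lower from 2074 to 2196, 2-fold higher from 720 to 1916 and 2-fold lower from 467 to 847. Alternatives added after seeing the data gave 1570 higher, 127 and 78 2-fold with 5 cells a library, 1350 higher and 133 2-fold higher for trimmed cells, and 1315 and 141 without their T cell-like members.

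Of the genes named, direction turned for CST3 (-1.60 without other-type cells, -0.26 in both sets of trimmed cells), GZMK (0.038 thinned) and IL7R (-0.038 centred, -0.42 with TMM). The causes were not tested. No paired analysis was possible because barcode numbers could not be tied to labels. Genes under about 3 UMIs in the summed cells cannot be called lower at this depth.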
